A study of Mus musculus with 6 samples.

Results

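The genes described here were 10 genes of Toll-like receptor signaling and of the inflammasome: Tlr2, Tlr4, Tlr7, Myd88, Irak4, Nlrp3, Pycard, Casp1, Il1b and Il18. They were chosen by symbol, and all 10 were among the 14975 genes of the FPKM table (fragments scaled to gene length and sequencing depth). The RNA came from platelets of mouse peripheral blood, C57BL/6 by the labels, in 3 control and 3 pre-AML libraries. Per the study, the control mice (WT in the labels) had received normal bone marrow (BMT control), and the pre-AML mice (AML in the labels) had received MLL-AF9-transformed, GFP+ leukemia cells 1 week before. The labels name no allele or agent beyond this. The recipients were 8 to 12 weeks old and sub-lethally irradiated before transplantation, a treatment that both groups shared. The leukemia cells were made with a retrovirus that carried MLL-AF9 and GFP in Lin-c-kit+Sca-1+ stem and progenitor cells, and cells from a first recipient were passed to the mice used. The methods of the study describe RNA-seq on independent mice each time. By the series text, however, there were 2 replicates per group and pools of 3 to 4 mice, whereas 3 samples per group are labelled. These descriptions differ on whether a library is 1 animal or a pool, and the p-values below measure the spread between these libraries, which may be technical.

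Toll-like receptors recognize microbial molecules and, in some cases, molecules released by damaged cells. Tlr2 and Tlr4 sit at the cell surface and respond to lipoproteins and lipopolysaccharide, and Tlr7 sits in endosomes and responds to single-stranded RNA. All 3 signal through the adaptor Myd88, which recruits the kinase Irak4 and leads to NF-kappaB activation. The inflammasome is a cytosolic complex in which the sensor Nlrp3 binds the adaptor Pycard (ASC), Pycard recruits the protease Casp1, and Casp1 cuts the precursors of the cytokines Il1b and Il18. Platelets have no nucleus, so their transcripts are inherited from the megakaryocyte or taken up, and Toll-like receptors and Nlrp3 inflammasome parts have been described in them.

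In GRCm38 with the GENCODE M21 annotation, all 10 are protein-coding genes. Among the receptors, Tlr2 lies at chr3:83836272-83841767 (minus strand), Tlr4 at chr4:66827584-66930284 (plus strand) and Tlr7 at chrX:167304929-167330558 (minus strand). Myd88 lies at chr9:119335934-119341411 (minus strand) and Irak4 at chr15:94543643-94581815 (plus strand). Of the inflammasome genes, Nlrp3 lies at chr11:59541568-59566956 (plus strand), Pycard at chr7:127989708-127993867 (minus strand) and Casp1 at chr9:5298517-5307265 (plus strand). The cytokine genes Il1b and Il18 lie at chr2:129364570-129371139 (minus strand) and chr9:50554827-50581840 (plus strand).

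The sequences below lie directly upstream of 3 of these genes, Tlr2, Irak4 and Pycard. They are shown because these were the 3 members whose pre-AML 1 and pre-AML 2 values both exceeded every control value. They are reference sequence from RefSeq (GRCm38.p6), read 5′ to 3′ on the strand of the gene. They are cut where the GENCODE gene begins, and capitals mark matches to the motifs searched.
Tlr2, 91 bases at chr3:83841768-83841858, minus strand: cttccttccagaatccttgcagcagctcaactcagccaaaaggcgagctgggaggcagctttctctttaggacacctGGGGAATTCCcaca
Irak4, 233 bases at chr15:94543410-94543642, plus strand: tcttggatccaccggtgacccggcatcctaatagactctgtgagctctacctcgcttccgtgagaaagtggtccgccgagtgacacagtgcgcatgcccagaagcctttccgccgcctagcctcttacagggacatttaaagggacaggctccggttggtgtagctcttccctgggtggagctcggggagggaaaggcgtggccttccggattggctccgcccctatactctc
Pycard, 250 bases at chr7:127993868-127994117, minus strand: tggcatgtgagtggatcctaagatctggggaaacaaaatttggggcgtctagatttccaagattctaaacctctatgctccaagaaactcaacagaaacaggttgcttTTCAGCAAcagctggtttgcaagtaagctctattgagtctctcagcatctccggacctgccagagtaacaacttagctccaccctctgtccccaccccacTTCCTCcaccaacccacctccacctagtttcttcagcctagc
Both strands were searched for 4 motifs, and no matches overlap in the sequences shown. The letters GAGGAA are an ETS-type motif, bound by a family of factors active in blood cells. A kappaB-type motif, as bound by NF-kappaB, was taken as GGG, any 3 bases and then TTCC. The letters TTGCNNAA are a C/EBP-type motif, bound by factors of the myeloid lineage. The letters TATAAA are a TATA box, found at the start of some genes. Within 250 bases upstream of the RefSeq start, Tlr2 held the kappaB-type letters at position -173 (counted back from the start). Pycard held the C/EBP-type letters on the other strand at position -142 and the ETS-type letters on the other strand at position -42. In Irak4 none of the 4 motifs was found in this window. Of the 8 members with a RefSeq entry (all but Tlr4 and Tlr7), 3 held the ETS-type letters (Nlrp3, Pycard and Casp1) and 3 the TATA letters (Myd88, Il1b and Il18), with those of Il1b at position -31. Over all 27025 upstream windows of this length, 23.1% held the ETS-type letters, 4.6% the kappaB-type, 9.55% the C/EBP-type and 13% the TATA letters. These matches describe the letters only.

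The libraries held between 11435110 and 17021974 reads on listed genes, as recovered from the FPKM values and gene lengths. The defining markers of platelets, the labelled cell type, were high in all libraries, and the 12 platelet markers summed to between 90380 and 114400 FPKM in the controls, with Pf4, the platelet factor 4 chemokine, at 58030 to 79260 FPKM. One library, pre-AML 3, stood apart from the other 5. Its rank correlation with them over genes was 0.842 to 0.880, against 0.962 to 0.973 among the others. Its platelet markers summed to 61820 FPKM, against 91430 in pre-AML 1 and 92840 in pre-AML 2. All 10 B cell markers and 19 of 21 monocyte and macrophage markers were above their highest control value in it. Every result is therefore given with and without pre-AML 3. In bulk RNA, fewer cells of a type and less RNA per cell cannot be told apart. Values also moved with GC content: the rank correlation of a gene's GC content with its level relative to the other libraries ran from -0.40 to -0.30 in the controls and was -0.05, 0.31 and 0.49 in pre-AML 1, 2 and 3.

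Which of these genes did control platelets hold? The adaptor and the kinase were the highest, at 4.63 ± 1.07 FPKM for Myd88 and 3.46 ± 0.293 FPKM for Irak4 (SD, n = 3). Casp1 at 2.08 ± 0.613 FPKM, Pycard at 1.70 ± 0.153 FPKM and Il1b at 0.718 ± 0.164 FPKM followed. The 3 receptors were below 0.1 FPKM in every control library, and Nlrp3 and Il18 had no read in any control library. Myd88 was above 85.0%, Irak4 above 82.9%, Casp1 above 78.9% and Pycard above 77.0% of all listed genes, while the receptors and the sensor Nlrp3 were at or near 0. On the deposited values, neighbors in this order whose control ranges did not overlap were Myd88 and Irak4, Irak4 and Casp1, Pycard and Il1b, and Il1b and Tlr2. The ranges of Casp1 and Pycard overlapped, as did those of Tlr2, Tlr4 and Tlr7, so no order among these can be read. Exons of Irak4 overlap those of Twf1, which was at 155 to 192 FPKM in the controls. Those of Myd88 overlap Acaa1a, at 2.42 to 3.08 FPKM in the controls. Reads of these overlaps cannot be assigned, so the levels of Irak4 and Myd88 themselves are not settled. The order also rests on the gene lengths behind the deposited values. For Casp1, whole reads were obtained with 3136 bp, while the annotation used here gives 1497 bp. With the longest coding transcript as length (tried after the values had been seen), Tlr4 (0.0405 FPKM) came before Tlr2 (0.0373 FPKM). Myd88 was then at 5.92 ± 1.37, Irak4 at 5.06 ± 0.428, Casp1 at 4.36 ± 1.28 and Pycard at 1.70 ± 0.153 FPKM. At these lengths the control ranges of Myd88, Irak4 and Casp1 overlapped, and that of Casp1 lay above that of Pycard. Pycard kept its 3800 bp and those of Myd88 and Irak4 became shorter, so these lengths could not have brought the 2 below Pycard. On the deposited values Myd88 and Irak4 lay above Pycard, but the order of these 4 genes is not settled.

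**Figure D1:**
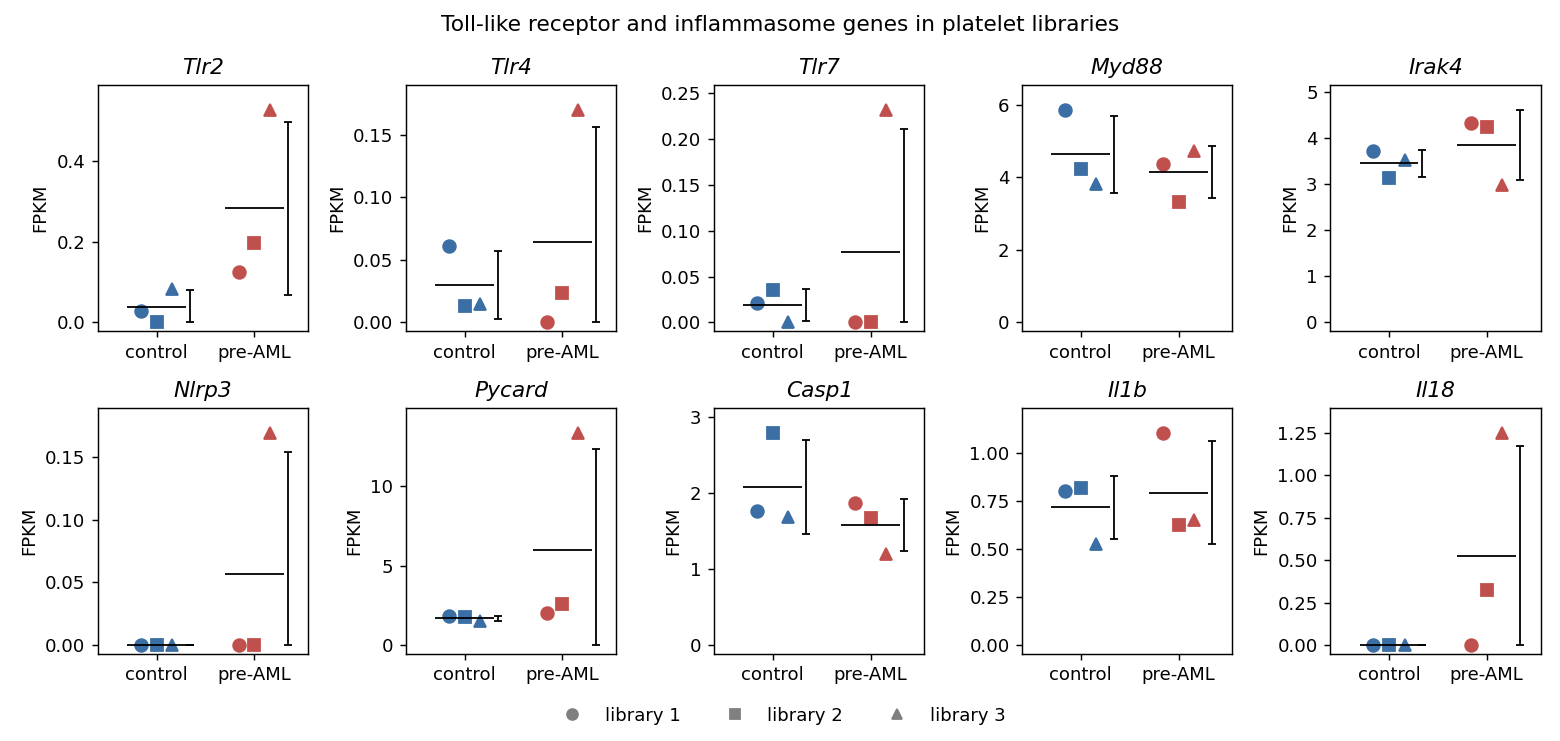
FPKM of the 10 genes in each library, with 3 control and 3 pre-AML points per gene (circle, square and triangle for libraries 1, 2 and 3), the group mean as a line and the SD (n = 3, cut at 0) as the error bar. On the deposited scale, pre-AML 3 was the highest of the 6 libraries for Tlr2, Tlr4, Tlr7, Nlrp3, Pycard and Il18, and the lowest for Irak4 and Casp1. Per recovered read it was not the lowest for Irak4 and was also the highest for Myd88.

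The main question of the design is whether pre-AML platelets differed from control platelets. Of the 10 members, 4 passed the filter of a mean of 1 FPKM (Myd88, Irak4, Pycard and Casp1), and these also had a control mean above it. In limma, fitted on 4412 genes, 0 of the 4 had an adjusted p below 0.05, with all 6 libraries and without pre-AML 3. Over all genes, 0.0227% were called with all 6 libraries and 0.047% of 4258 without pre-AML 3. At an unadjusted p below 0.05, limma called 0 of the 4 members in both fits, where the background over all tested genes was 2.56% higher and 6.53% lower (3.76% and 5.21% without pre-AML 3). With limma-voom on the recovered reads, 0 of the members tested had an unadjusted p below 0.05. The other 6 members are given by their values.

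The surface receptor Tlr2 was counted with few reads. Its values were 0.0283, 0 and 0.0836 FPKM in the controls (1, 0 and 3 reads) and 0.125, 0.198 and 0.526 FPKM in pre-AML 1, 2 and 3 (5, 9 and 37 reads). Each pre-AML library was above each control library, also without pre-AML 3. The difference of the means of log2(FPKM + 1) was 0.29 (exact permutation test, two-sided, p = 0.1, the smallest that 3 against 3 libraries allow), and 0.16 without pre-AML 3. With 0.1 FPKM added in place of 1, the difference with all 6 libraries was 1.38, so its size is set by the added value. By summed reads relative to the effective library size behind the FPKM values, Tlr2 was 4.65-fold the controls in pre-AML 1 and 2 (95% exact interval 1.46 to 19.4). It was 14.9-fold in pre-AML 3 (5.37 to 57.8). The control sum behind both ratios was 4 reads, and all such intervals cover counting error only. Libraries of the same group differed by more than counting error. Over genes, the chi-square per degree of freedom between 2 of them was 8.93 to 44.6. An interval that leaves out 1 is therefore no test between the groups.

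Tlr4, the lipopolysaccharide receptor, was at 0.0613, 0.0128 and 0.0151 FPKM in the controls and at 0, 0.0239 and 0.170 FPKM in the pre-AML libraries. The groups overlapped, and 22 of the 24 pre-AML reads were in pre-AML 3. Relative to the controls, the summed reads were 0.443-fold in pre-AML 1 and 2 (0.0437 to 2.48) and 5.93-fold in pre-AML 3 (2.33 to 17.9). The RNA receptor Tlr7 was at 0.0209, 0.0348 and 0 FPKM in the controls, and at 0, 0 and 0.231 FPKM in the pre-AML libraries. All 22 of its pre-AML reads were in pre-AML 3, and the 0 reads in pre-AML 1 and 2 allow a ratio of up to 3.21. Exact permutation tests (two-sided, n = 3 against 3) gave p = 0.8 for Tlr4 and p = 1.0 for Tlr7.

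Of the shared signaling genes, Myd88 was at 5.84, 4.22 and 3.82 FPKM in the controls and at 4.37, 3.33 and 4.71 FPKM in the pre-AML libraries. These ranges overlapped, and the log2 fold change was -0.12 (SE 0.18, 95% interval -0.54 to 0.29, adjusted p = 0.790, limma). Without pre-AML 3 it was -0.21 (SE 0.19, -0.64 to 0.23). The sign of this difference rested on 1 library, since it was 0.03 without control 1, the highest of the 6. By summed reads, with counting error only, Myd88 was 0.831-fold the controls in pre-AML 1 and 2 (0.711 to 0.969) and 1.02-fold in pre-AML 3 (0.879 to 1.20). Per recovered read, pre-AML 3 was the highest of the 6 at 6.46 FPKM, against 3.96 to 5.99 FPKM in the controls.

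Irak4, the kinase that Myd88 recruits, was at 3.72, 3.14 and 3.53 FPKM in the controls and at 4.33, 4.25 and 2.98 FPKM in the pre-AML libraries. Pre-AML 1 and 2 were above the controls and pre-AML 3 was below them. The place of pre-AML 3 turned with the scaling: per recovered read, in place of the effective library size, Irak4 was at 4.08 FPKM there and at 3.32 to 3.81 FPKM in the controls. The log2 fold change was 0.11 (SE 0.16, -0.26 to 0.48, adjusted p = 0.789, limma) with all 6 libraries and 0.25 (SE 0.16, -0.10 to 0.59, adjusted p = 0.675, limma) without pre-AML 3. By summed reads, with counting error only, Irak4 was 1.25-fold the controls in pre-AML 1 and 2 (1.11 to 1.39). At the effective library size it was 0.865-fold in pre-AML 3 (0.758 to 0.987). Exons of Irak4 overlap those of Twf1 on the other strand, which was at 118 to 192 FPKM, and those of Myd88 overlap Acaa1a, at 2.42 to 4.07 FPKM. Exons of Pycard overlap Gm45205 on the other strand, for which no value was used here. The library method marks no strand, so reads of the overlaps cannot be assigned.

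The inflammasome sensor Nlrp3 had 0 reads in 5 libraries and 16 reads in pre-AML 3 (0.169 FPKM). A count of 0 allows up to 3 reads, or 0.0526 to 0.0630 FPKM per control library. Against this floor summed over the 3 controls, pre-AML 3 was at least 8.62-fold higher, and with the counting error of its own reads included the exact 95% lower limit of the ratio was 6.23. Nlrp3 was not detectable at this depth in control platelets or in pre-AML 1 and 2.

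Pycard, the adaptor between sensor and protease, had the largest log2 fold change of the 4 tested members. Its values were 1.82, 1.76 and 1.53 FPKM in the controls and 2.04, 2.60 and 13.4 FPKM in the pre-AML libraries, so the groups did not overlap. The pre-AML mean of 6.00 ± 6.38 FPKM (SD, n = 3) was carried by pre-AML 3, which held 1184 of the reads against 103 and 149 in pre-AML 1 and 2. The log2 fold change was 1.0 (SE 0.51, -0.16 to 2.16, adjusted p = 0.522, limma), and it was 0.29 (SE 0.17, -0.08 to 0.67, adjusted p = 0.653, limma) without pre-AML 3. In reads, with counting error only, Pycard was 1.37-fold the controls in pre-AML 1 and 2 (1.15 to 1.64) and 7.84-fold in pre-AML 3 (6.83 to 9.04).

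The protease Casp1 was at 1.77, 2.79 and 1.69 FPKM in the controls and at 1.87, 1.67 and 1.20 FPKM in the pre-AML libraries. The groups overlapped, with the lowest value in pre-AML 3 and the highest in control 2. The log2 fold change was -0.25 (SE 0.20, -0.70 to 0.21, adjusted p = 0.614, limma) and -0.14 (SE 0.19, -0.57 to 0.30, adjusted p = 0.860, limma) without pre-AML 3. After removal of the trend with GC content and gene length by loess it was 0.02, so its direction is not settled. Casp1 in pre-AML 3 was 0.567-fold the controls in reads (0.439 to 0.725, counting error only), while its partner Pycard was 7.84-fold. The 2 partners thus lay on opposite sides of the controls in that library on the deposited scale. Over all tested genes, pre-AML 3 was the lowest of the 6 libraries for 43.8% and the highest for 18.7%. Per recovered read Casp1 lay closer to the controls there, at 1.65 FPKM against 1.75 to 2.94 FPKM.

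**Figure D2:**
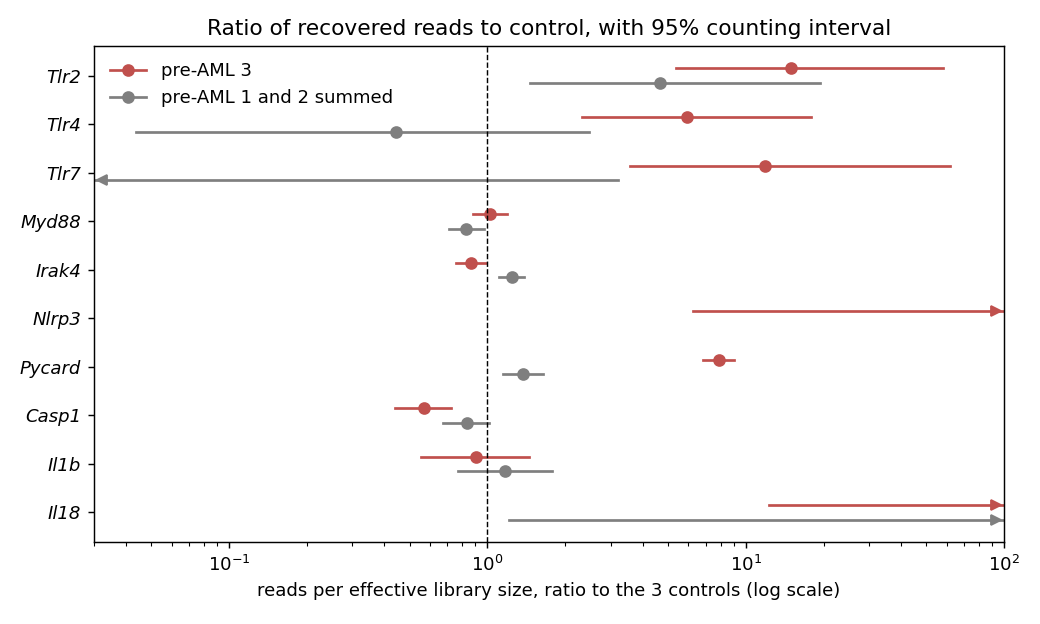
Summed reads relative to effective library size as a ratio to the 3 controls (log axis), for pre-AML 1 and 2 together and for pre-AML 3, with exact 95% counting intervals, and arrows where an interval runs past the axis or has no upper limit. Pycard was at 1.37 and 7.84, Tlr2 at 4.65 and 14.9, while Irak4 was at 1.25 and 0.865 and Myd88 at 0.831 and 1.02.

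Of the cytokines, Il1b had reads counted in every library, at 0.804, 0.820 and 0.529 FPKM in the controls and 1.10, 0.626 and 0.652 FPKM in the pre-AML libraries (12 to 29 reads per library). The groups overlapped (exact permutation test, two-sided, p = 0.8), and pre-AML 3 lay within the control range. Per recovered read it was at 0.893 FPKM, just above the control range of 0.548 to 0.866 FPKM. Its ratio of reads to the controls was 1.18 (0.773 to 1.78) in pre-AML 1 and 2 and 0.901 (0.552 to 1.45) in pre-AML 3. Exons of Il1b overlap those of the antisense gene Il1bos, at 2.37 to 4.05 FPKM, so part of these reads may belong to Il1bos.

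Il18 was listed with 0 reads in the 3 controls and in pre-AML 1, with 5 reads in pre-AML 2 (0.321 FPKM) and with 30 reads in pre-AML 3 (1.25 FPKM). The exact permutation test gave p = 0.4 (two-sided). A count of 0 allows 0.207 to 0.248 FPKM per control library, and against the floor summed over the controls pre-AML 3 was at least 16.2-fold higher. With the counting error of its own reads included, the exact 95% lower limit of the ratio was 12.4. The 2 cytokines therefore differed in the reads counted at baseline: Il1b had reads in each control library and Il18 in none. Since part of the Il1b reads may belong to Il1bos, the level of Il1b itself is not settled.

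Counted over the members, the groups did not overlap for 2 of 10, Tlr2 and Pycard, both higher in pre-AML, and for 0 in the other direction. The background over all tested genes was 6.14% higher and 12.8% lower, and 8.11% higher among genes under the filter. Per recovered read it was 3 with all 6 libraries, with Irak4 added, and the share over all genes was not computed on that scale. Without pre-AML 3 the number was 3 of 10, again with Irak4, against 11.5% of tested genes and 10.7% of genes under the filter. On the deposited scale, pre-AML 3 was the highest of the 6 libraries for 6 of the 10 members and the lowest for 2, against 35.9% and 17.4% of all listed genes. Of the 6 members under the filter it was the highest for 5 and the lowest for 0, against 43.2% and 6.46% of all 10563 such genes. Among the 4 tested members it was the highest for Pycard and the lowest for Irak4 and Casp1, where it was the highest for 18.7% and the lowest for 43.8% of tested genes. These placings turn with the scaling. Per recovered read, pre-AML 3 was also the highest for Myd88 (6.46 FPKM) and was not the lowest for Irak4 (4.08 FPKM). The shares over all genes were not computed per recovered read.

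**Figure D3:**
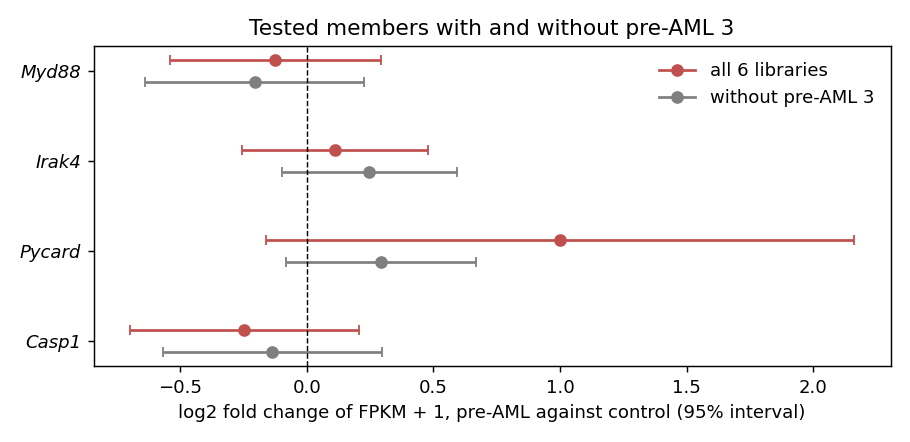
Log2 fold changes (pre-AML against control, log2(FPKM + 1) scale) of the 4 tested members with 95% intervals from limma, with all 6 libraries and without pre-AML 3. Each interval includes 0, and Pycard went from 1.0 to 0.29 when pre-AML 3 was left out.

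Levels of markers of other blood cells were read in the same libraries. The 19 monocyte and macrophage markers with a control mean under 1 FPKM summed to 0.838 to 2.02 FPKM in the controls, to 5.82 and 9.19 FPKM in pre-AML 1 and 2 and to 506 FPKM in pre-AML 3. Of the defining markers, Ccr2, Cx3cr1, Fcgr1, Fcgr4 and Itgam were at 0 in all controls. The other 2 markers of this list, Lyz2 and Fcer1g, were at 2384 to 2615 and 2280 to 2701 FPKM in the controls and at 3093 and 1867 FPKM in pre-AML 3. The 9 B cell markers with a control mean under 1 FPKM summed to 0.311 to 1.17 FPKM in the controls and to 0.363, 5.17 and 64.0 FPKM in pre-AML 1, 2 and 3, with Cd79a at 23.6 and Cd79b at 23.2 FPKM in pre-AML 3. For 12 T and NK cell markers chosen likewise, the sums were 0.259 to 0.592, 6.61, 2.39 and 16.2 FPKM. Pre-AML 3 was above the controls in 11 of 13 markers of this list, in which Nkg7 was at 18.9 to 28.2 FPKM and Cd2 at 0 FPKM in the controls.

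In the neutrophil list single markers lay on both sides of the controls in pre-AML 3, with 4 of 13 above them. Its 12 markers with a control mean under 1 FPKM summed to 1.86 to 2.33 FPKM in the controls and to 2.62, 2.04 and 2.68 FPKM in pre-AML 1, 2 and 3. All 13 listed markers summed to 3.19 to 3.66 FPKM in the controls and to 5.0, 2.24 and 2.81 FPKM in pre-AML 1, 2 and 3. S100a8 was at 1.09 to 1.60 FPKM in the controls and at 2.38, 0.191 and 0.123 FPKM in pre-AML 1, 2 and 3. Mmp8 was at 0.674 to 1.11 FPKM in the controls and at 1.27, 1.07 and 0.795 FPKM in pre-AML 1, 2 and 3. The 5 dendritic cell markers with a control mean under 1 FPKM summed to 0.20 to 0.281 FPKM in the controls and to 0.853, 0.281 and 1.54 FPKM in the pre-AML libraries. Of this list, 4 of 7 listed markers were above the controls in pre-AML 3, and Xcr1 (5.53 to 8.10 FPKM in the controls, 5.15 in pre-AML 3) and Clec9a (3.00 to 4.42 and 2.03 FPKM) were below them. The erythroid markers summed to 2350 to 2653 FPKM in the controls and to 2991, 2885 and 2377 FPKM in the pre-AML libraries, led by the globin genes Hba-a1 and Hbb-bt. The part of these cells' RNA in the values of Tlr2, Tlr4, Tlr7, Nlrp3, Pycard and Il18 was not tested.

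Genes with a pattern like that of a tested member over the 6 libraries were found by the correlation of log2(FPKM + 1), as a description. Pycard was followed most closely by Tap2 (r = 1.0), a peptide transporter of antigen presentation, and Itgb7 (r = 1.0), a leukocyte integrin. In all, 156 of 4411 genes had an r of at least 0.95 with Pycard, a pattern in which pre-AML 3 stands far above the other 5 libraries. Itgb7 was at 0 to 0.598 FPKM in those 5 and at 12.2 FPKM in pre-AML 3, so it passed the filter through that library. Such an r is largely set by 1 point, so these matches and their number say little on Pycard beyond its value in pre-AML 3. Fewer genes followed the other members: 5 for Myd88 (Vps41 and Ppa2 first, r = 0.97 each), 7 for Irak4 (Peg13 and Napa, r = 0.97 each) and 14 for Casp1 (Tm7sf2 and Rab13, r = 0.99 each). The 6 points of each correlation are the same libraries, with the depth and GC differences given above.

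The rest of the Toll-like receptor pathway was examined with a list of 52 genes, of which 50 were in the table and 19 passed the filter. In limma, 0 of the 19 had an adjusted p below 0.05, and at an unadjusted p below 0.05 there were 0 higher and 1 lower, near the shares over all tested genes of 2.56% and 6.53%. Fold changes were above 0 for 10 genes and below 0 for 9, with a median of 0.03 on the log2 scale against -0.06 over all tested genes. The 10 include 3 genes, named below, that passed the filter through pre-AML 3 alone, so their sign was set by the filter. Of the receptors other than the members, 7 were in the table, and Tlr12, a receptor for profilin in mice, was the highest at 7.38 ± 1.35 FPKM in controls and 6.43 ± 0.425 FPKM in pre-AML (SD, n = 3). The control means of the other 6 receptors were 0 to 0.455 FPKM. The 4 highest genes of the list were Tollip, an inhibitor of the pathway (57.9 ± 8.21 and 56.8 ± 5.23 FPKM), Hmgb1, a nuclear protein that acts as a danger signal when released (36.5 ± 3.08 and 33.8 ± 6.64 FPKM), the p38 kinase Mapk14 (33.1 ± 3.99 and 30.5 ± 4.00 FPKM) and the ubiquitin-conjugating cofactor Ube2v1 (15.1 ± 1.34 and 15.4 ± 1.60 FPKM). Their log2 fold changes lay between -0.12 and 0.03.

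The gene of this list with an unadjusted p below 0.05 was Chuk, the IKK-alpha kinase of the NF-kappaB pathway, named after its values were seen. It was at 5.21, 5.60 and 6.67 FPKM in the controls and at 3.95, 4.48 and 2.67 FPKM in the pre-AML libraries, without overlap, as for 12.8% of all tested genes in this direction. Its log2 fold change was -0.55 (SE 0.18, adjusted p = 0.522, limma), -0.39 without pre-AML 3 and -0.30 after the loess removal of GC and length trends. Conversely, the lipopolysaccharide co-receptor Cd14, Ly86 and Unc93b1, the chaperone of endosomal Toll-like receptors, passed the filter through pre-AML 3 alone, at 11.7, 9.03 and 13.5 FPKM there and at no more than 0.141 FPKM in any control. Without pre-AML 3, 16 genes of the list were tested, 0 were called and the median was 0.02 against -0.03 over all genes.

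The inflammasome and interleukin-1 list held 43 genes, of which 39 were in the table and 12 passed the filter. In limma, 0 of the 12 had an adjusted p below 0.05, and at an unadjusted p below 0.05 there were 0 higher and 1 lower, with shares over all tested genes of 2.56% and 6.53%. Fold changes were above 0 for 3 and below 0 for 9, with a median of -0.16 on the log2 scale against -0.06 over all tested genes, and of -0.07 against -0.03 without pre-AML 3. Among sensors, platelets held Nlrx1, the mitochondrial member of the NLR family (49.1 ± 7.75 FPKM in controls and 54.4 ± 4.49 in pre-AML), and Nlrp6 (19.9 ± 3.03 and 19.0 ± 1.82 FPKM), named after its values were seen, in contrast to Nlrp3. Ninj1, which mediates membrane rupture in cell death, was the highest gene of the list (260.8 ± 44.0 and 311.5 ± 3.49 FPKM, log2 fold change 0.27, adjusted p = 0.532, limma). Bcl10, an adaptor of NF-kappaB activation (23.6 ± 1.16 and 20.2 ± 2.28 FPKM), had a log2 fold change of -0.22.

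Casp4, the caspase that senses cytosolic lipopolysaccharide, was the gene of this list with an unadjusted p below 0.05 and was named after its values were seen. It was at 17.7, 18.1 and 15.7 FPKM in the controls and at 12.5, 11.4 and 7.87 FPKM in the pre-AML libraries, without overlap, where the share over all tested genes was 12.8%. Its log2 fold change was -0.67 (SE 0.18, adjusted p = 0.522, limma) and -0.49 without pre-AML 3 (adjusted p = 0.448, limma). After the loess removal of GC and length trends it was -0.32. Over 16 alternatives the fold change of Casp4 was between -0.79 and -0.28 and that of Chuk between -0.70 and -0.24, with adjusted p-values of 0.312 to 0.862 for each.

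**Figure D4:**
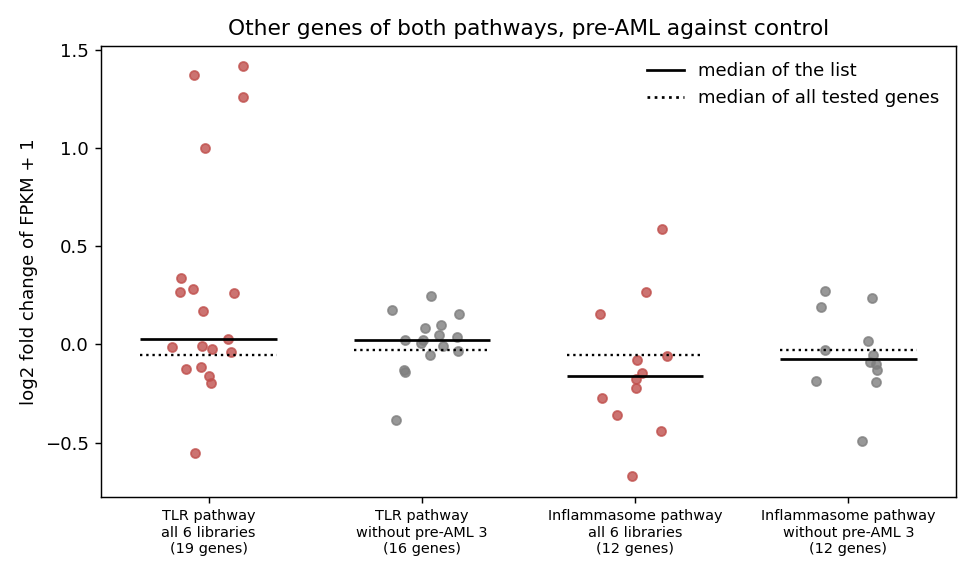
Log2 fold changes (pre-AML against control, log2(FPKM + 1) scale) of the tested genes of the Toll-like receptor and inflammasome lists, with all 6 libraries and without pre-AML 3, each gene as a point, with the list median (solid) and the median of all tested genes (dotted). With all 6 libraries the medians were 0.03 and -0.16 on the lists and -0.06 over all genes, and 0 genes of either list had an adjusted p below 0.05.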

How the data were processed

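Platelets were depleted of CD45+ and Ter119+ cells, and polyA RNA was sequenced by SMART-Seq2 and Nextera XT, which mark no strand. The authors mapped reads to mm10 with STAR and deposited FPKM values for 14975 genes. The counting program and annotation are not given in the sources used here. FPKM values are normalized, so limma-trend (limma 3.58.1, R 4.3.3) was fitted to log2(FPKM + 1) wherever the mean over libraries reached 1 FPKM, without covariates, with Benjamini-Hochberg adjustment over all genes and a threshold of 0.05. A fold change on this scale understates that of low genes.

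Reads were recovered as FPKM times exon length (GENCODE M21) and effective library size. Within 0.05 reads, 85.9% of values were whole with annotated lengths and 96.9% after lengths were fitted for 1924 genes, Casp1 (3136 bp) and Myd88 (2509 bp) among them. The ratio of effective size to recovered reads was 1.37 in pre-AML 3 and 1.02 to 1.06 elsewhere. Ratios of reads have exact 95% intervals for counting error only, which leave out the spread between libraries. A count of 0 reads was given a floor of 3 reads. Single values were compared by exact permutation tests (scipy 1.17.1, pandas 2.3.3, numpy 2.4.6, Python 3.11.15). Simulated data with known changes were run through the fit to check that it works as written. They held no outlying library and no GC trend, so they do not show how it performs on these data.

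The members and lists were chosen with earlier results of these data known. Named genes were the members, the 4 highest genes of each pathway list, the 2 highest of each marker list and the 2 closest patterns of each tested member, and 1 gene that this rule names is not reported here. Replicate numbers did not pair the libraries: correlations of deviations from the group means were -0.04, -0.12 and -0.17. Besides the main setting, 16 others were run, 2 of them chosen after seeing the data.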

Additional observations from a re-analysis of the deposited data

How the results depend on the processing

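The count of members, Toll-like receptor list genes and inflammasome list genes with an adjusted p below 0.05 was 0 in each of the 17 settings. Over all genes the count was 1, and it was 0 without a filter, after rescaling to recovered reads and with limma-voom. It was 2 with limma-voom and with loess, both without pre-AML 3 and chosen after seeing the data, and 0 to 2 when each library was left out. Pycard was above 0 (0.29 to 1.41) and Irak4 was above 0 (0.04 to 0.32 on the log2 scale) in all 16 alternatives, with adjusted p-values of 0.312 to 0.862 and 0.484 to 0.945 (limma). Myd88 changed its sign to 0.0252 without control replicate 1 (range -0.228 to 0.0252 when each library was left out), and Casp1 to 0.0185 with loess, to 0.0185 with loess and the replicate block, and to 0.0339 with loess without pre-AML 3. An unadjusted p below 0.05 (limma) was met by 1 member in 6 alternatives: Tlr2 with no filter, and Pycard without pre-AML 1, without pre-AML 2, with the replicate block, with loess and the block, and with loess without pre-AML 3. Over all genes, in the same order, it was met by 870 of 14975, 656 of 4432, 371 of 4425, 372 of 4412, 219 of 4397 and 256 of 4241. The replicate block left Pycard at 1.0 (adjusted p = 0.569, limma), and the block changed no call. Members whose groups did not overlap numbered 2, and 2 to 4 when each library was left out, with 4 without pre-AML 1, and 3 after rescaling to recovered reads. The shares over all genes are given above for the main setting and without pre-AML 3. For the other settings no such share was computed, so their counts cannot be read against a background. A pseudocount of 0.1 FPKM in place of 1 raised the log2 differences of low genes, to 1.38 for Tlr2, 0.22 for Tlr4, 0.34 for Tlr7, 0.48 for Nlrp3 and 1.94 for Il18. The control levels by the longest coding transcript were 5.92 FPKM for Myd88, 5.06 for Irak4, 4.36 for Casp1 and 1.01 for Il1b. The cause was not tested. The depth limits the statements on Tlr2, Tlr4, Tlr7, Nlrp3 and Il18, with 0 to 6 reads over the 3 controls.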
